A study of Mus musculus with 10 samples.

Results

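The killer lectin-like receptors are C-type lectin receptors best known from natural killer (NK) cells, and 7 of their genes were described in CD8 T cells sorted from a mouse tumour. Klrc1, Klrc2, Klrd1, Klrk1, Klrg1, Klre1 and Klrb1c were taken by gene symbol, as 7 of the 54337 genes to which the deposited transcripts could be assigned, and not by any measured value. The study asked what forced expression of an NFAT factor does to T cells inside a tumour. P1A CD8 T cells, whose transgenic receptor recognises the P1A antigen of the tumour, had 24 h of activation, were transduced with a retroviral vector and were given a day later to Rag1-/-B10D2 mice with P511 mastocytoma, a mast cell tumour. CD8 T cells were sorted from the tumours 7 days after transfer for RNA sequencing. The vectors encoded NFAT5 (libraries NFAT5 1, 5 and 8), a transcription factor of the osmotic stress response, CA-RIT NFAT1 (libraries 2, 4, 9 and 10), a constitutively active NFAT1 that cannot pair with AP-1, or eGFP alone as the empty-vector control (libraries 3, 6 and 7). All groups shared the T cells, the activation, the transduction and the host, so the control cells too were activated, transduced and tumour-infiltrating. The strain is labelled C57BL/6, whereas the recipients are described as B10D2, and Rag1-/- hosts lack T and B cells of their own but keep NK cells. Neither the ages nor the numbers of mice are stated in the labels. As the labels do not tie the libraries to separate animals, the p-values reflect spread between libraries alone, which may be technical.

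Most of these receptors pass their signal through a partner. CD94, the product of Klrd1, pairs with NKG2A (Klrc1) to form an inhibitory receptor and with NKG2C (Klrc2) to form an activating one, and both pairs bind the class Ib molecule Qa-1, encoded by H2-T23. NKG2D (Klrk1) is an activating receptor for stress-induced ligands that signals in T cells through the adaptor DAP10, encoded by Hcst. KLRG1 (Klrg1) is an inhibitory receptor for cadherins that marks antigen-experienced effector T cells, KLRE1 (Klre1) forms receptors with KLRI1 or KLRI2, and Klrb1c encodes the NK1.1 antigen of C57BL/6 mice. On CD8 T cells, NKG2A and KLRG1 are known as inhibitory receptors that appear after activation, and NKG2D as a costimulatory one.

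The start of the coding sequence was read for a motif of inhibitory receptors and, in Klrk1, for the start codons of its forms. The following 75 bases, read 5′ to 3′ on the minus strand of chromosome 6 from the GENCODE M21 transcripts (GRCm38), are those of Klrc1, its activating counterpart Klrc2, Klrg1 and the long form of Klrk1. In Klrc1 and Klrg1 the capitals mark codons that match the inhibitory motif called ITIM, searched as isoleucine, serine, valine or leucine, any residue, tyrosine, any pair of residues, then isoleucine, leucine or valine. In Klrk1 the capitals mark the start codon of the long form and, further in, that of the short form.
Klrc1: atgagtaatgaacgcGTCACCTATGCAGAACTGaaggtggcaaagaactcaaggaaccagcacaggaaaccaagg
Klrc2: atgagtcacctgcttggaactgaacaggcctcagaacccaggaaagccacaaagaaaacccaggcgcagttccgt
Klrg1: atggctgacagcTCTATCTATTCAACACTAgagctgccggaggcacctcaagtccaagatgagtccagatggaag
Klrk1: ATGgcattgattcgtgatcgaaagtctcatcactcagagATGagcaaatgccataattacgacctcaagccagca
Klrc1 had 1 match in its first 60 codons, beginning at codon 6. Klrg1 had a match at codon 5, shown above, and another at codon 54, outside the stretch shown. Klrc2 had 0 matches in its first 60 codons, as had Klrd1, Klrk1 and Klre1, and Klrb1c had 1 match, at codon 53. A match describes letters and does not give the sign of a signal. Whether the matches at codons 53 and 54 lie in the part of the protein inside the cell was not examined. Between whole coding sequences, Klrc1 and Klrc2 were identical at 87.2% of 663 aligned bases, whereas Klrc1 matched Klrd1 at 62.6% and Klrk1 at 62.1%.

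Before the receptors are described, the libraries need a short account. The 8 libraries used for group values held 18.8 to 36.6 M estimated reads, with Cd8a, the alpha chain of the CD8 coreceptor, at 582 to 988 CPM (counts per M reads on matched genes). eGFP control 7 held 51112 estimated reads, where 3 counts already equal 58.7 CPM, and CA-RIT NFAT1 10 held 1 read on Cd8a among 32.5 M. Both were left out of the group means and the main test and are shown beside them. eGFP control 3, the deepest library, had reads on 13186 genes, against 15276 to 17255 in the other 7 of the 8. The receptors' fold changes and the lists' median fold changes against the eGFP control, where given, are therefore also given without it. Nfat5 itself, which checks the NFAT5 label, lay at 87.0, 81.6 and 48.0 CPM in NFAT5 1, 5 and 8, at 10.7, 4.69 and 3.02 CPM in CA-RIT NFAT1 2, 4 and 9, and at 1.12 and 6.88 CPM in eGFP control 3 and 6. The fit over all genes, by edgeR's quasi-likelihood test with Benjamini-Hochberg adjustment at 0.05, called 0 of 14473 genes in each of the 3 comparisons (0%), with 1051, 932 and 163 genes at an unadjusted p under 0.05 in NFAT5 against eGFP control, CA-RIT NFAT1 against eGFP control and CA-RIT NFAT1 against NFAT5. DESeq2 called 104, 60 and 1 genes (0.719%, 0.415% and 0.00691%). Without eGFP control 6, which leaves eGFP control 3 as the lone control, edgeR called 3294 and 3410 genes in the comparisons with the eGFP control. In none of these fits was 1 of the 7 receptors called.

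The 7 genes fell into a high and a low class, and this order held in each of the 8 libraries. Per transcript length, in the deposited TPM values, Klrc1 averaged 264 TPM over the 8 libraries, Klrk1 185 TPM, Klrd1 159 TPM and Klrg1 137 TPM. Far below them lay Klre1 at 8.83 TPM, Klrc2 at 1.31 TPM and Klrb1c at 0.205 TPM. Klre1 ranked 5, Klrc2 ranked 6 and Klrb1c ranked 7 of the 7 in each of the 8 libraries. Among the upper 4 the order varied: Klrc1 ranked 1 or 2, Klrk1 and Klrd1 ranked between 2 and 4, and Klrg1 between 1 and 4. Klrc1 exceeded both Klrk1 and Klrd1 in each of the 8 libraries, and lay below Klrg1 in NFAT5 5 alone. Klrk1, Klrd1 and Klrg1 changed places between libraries. The inhibitory subunit Klrc1 exceeded its activating counterpart Klrc2 by 131 to 312 times in TPM.

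**Figure D1:**
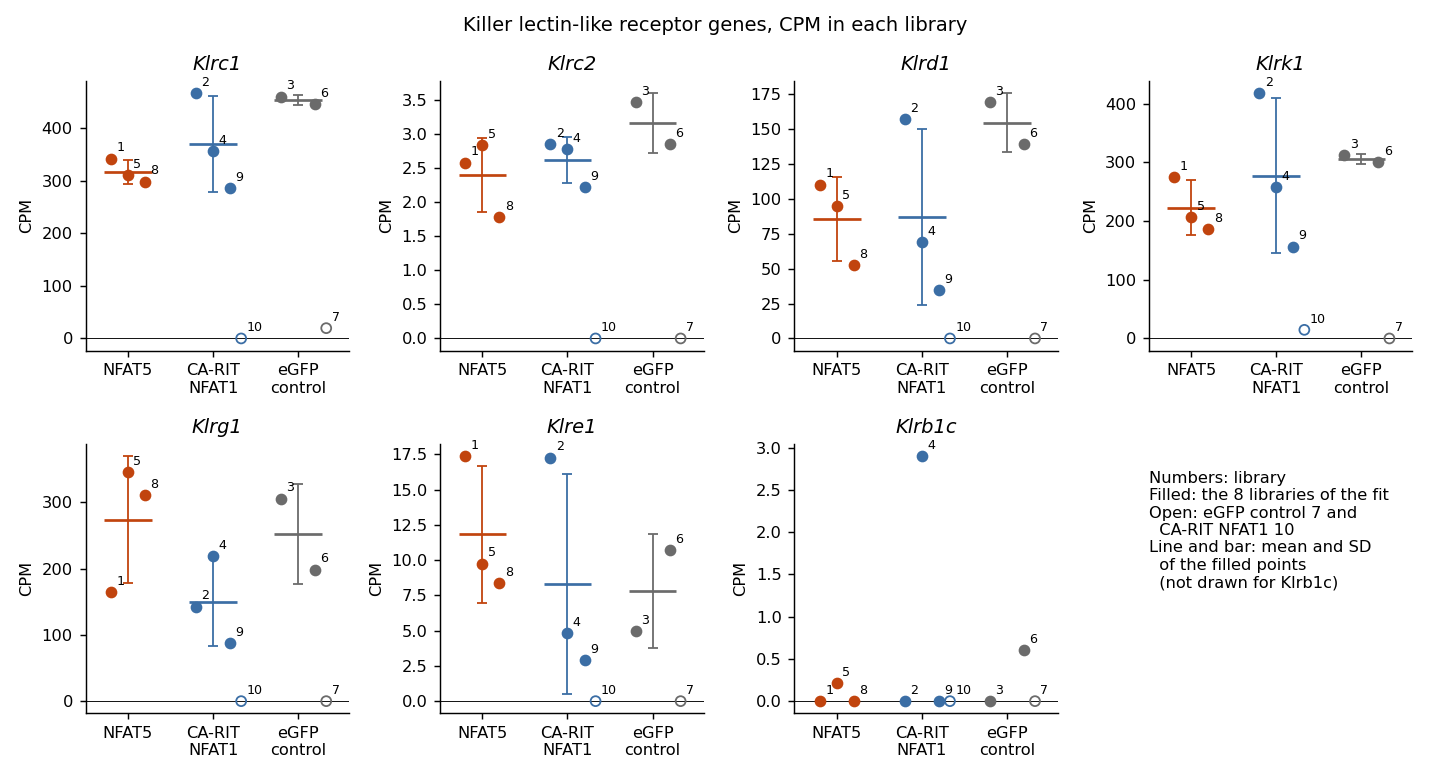
CPM of the 7 killer lectin-like receptor genes in each library, by vector group; filled points are the 8 libraries of the test, open points eGFP control 7 and CA-RIT NFAT1 10, and lines with bars the group mean and SD of the filled points. For Klrc1, Klrc2, Klrd1 and Klrk1 the 3 NFAT5 points lie below the 2 filled eGFP control points in CPM, and for Klrc1, Klrd1 and Klrk1 the CA-RIT NFAT1 points spread widest.

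The inhibitory pair comes first. Klrc1 (ENSMUSG00000030167, chr6:129666015-129678973, minus strand, GRCm38), the NKG2A subunit, lay at 342, 311 and 298 CPM in NFAT5 1, 5 and 8, at 466, 356 and 285 CPM in CA-RIT NFAT1 2, 4 and 9, and at 459 and 446 CPM in eGFP control 3 and 6. The 3 NFAT5 values were lower than both control values, and the CA-RIT NFAT1 values ran from below the NFAT5 range to above the controls. Group means were 317 ± 22.4 CPM in NFAT5 (SD, n = 3), 369 ± 90.9 CPM in CA-RIT NFAT1 (n = 3) and 453 ± 9.41 CPM in eGFP control (n = 2). The log2 fold change of Klrc1 in NFAT5 against eGFP control was -0.63 ± 0.22 (SE), with an edgeR p of 0.0223 and an adjusted p of 0.654, so it did not pass the test. Without eGFP control 3 the value was -0.52, with an unadjusted p of 0.0853. For CA-RIT NFAT1 against eGFP control it was -0.43 ± 0.22 (edgeR adjusted p = 0.679), and -0.32 without eGFP control 3.

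Klrd1 (ENSMUSG00000030165, chr6:129591782-129598775, plus strand), which encodes the CD94 chain that NKG2A needs to reach the surface, varied more than Klrc1. It lay at 110, 94.5 and 52.3 CPM in NFAT5 1, 5 and 8, at 157, 69.0 and 34.8 CPM in CA-RIT NFAT1 2, 4 and 9, and at 169 and 139 CPM in eGFP control 3 and 6. Again the 3 NFAT5 libraries lay below both controls, and CA-RIT NFAT1 2 lay between the control values. The group means were 85.6 ± 29.9 CPM in NFAT5, 86.9 ± 63.0 CPM in CA-RIT NFAT1 and 154 ± 21.1 CPM in eGFP control. The log2 fold change was -0.97 ± 0.55 in NFAT5 against eGFP control (edgeR adjusted p = 0.660) and -0.98 ± 0.55 in CA-RIT NFAT1 against eGFP control (edgeR adjusted p = 0.679). Without eGFP control 3 these values were -0.73 and -0.75. From the lowest to the highest of the 8 libraries Klrd1 spanned 4.87-fold and Klrc1 1.63-fold in CPM. Accordingly, the ratio of Klrc1 to Klrd1 in TPM differed between libraries, at 1.41, 1.48 and 2.58 in NFAT5 1, 5 and 8, at 1.43, 2.43 and 3.59 in CA-RIT NFAT1 2, 4 and 9, and at 1.31 and 1.48 in eGFP control 3 and 6. Klrc1 was thus the more abundant transcript of the pair in each of the 8 libraries.

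Klrc2 (ENSMUSG00000052736, chr6:129647496-129660689, minus strand), the activating NKG2C subunit, was low in each of the 8 libraries. Its CPM were 2.58, 2.83 and 1.78 in NFAT5 1, 5 and 8, 2.85, 2.78 and 2.22 in CA-RIT NFAT1 2, 4 and 9, and 3.47 and 2.85 in eGFP control 3 and 6. In CPM the NFAT5 values were below both controls here too, but NFAT5 5 and eGFP control 6 were nearly equal. Per transcript length, Klrc2 lay at 1.56, 1.43 and 0.980 TPM in NFAT5 1, 5 and 8, at 1.23, 2.00 and 1.10 TPM in CA-RIT NFAT1 2, 4 and 9, and at 1.16 and 1.04 TPM in eGFP control 3 and 6. On that scale NFAT5 1 and 5 lay above both controls and NFAT5 8 below them. The log2 fold change was -0.51 ± 0.67 in NFAT5 against eGFP control (edgeR adjusted p = 0.818) and -0.40 ± 0.67 in CA-RIT NFAT1 against eGFP control (edgeR adjusted p = 0.864), with -0.27 and -0.16 without eGFP control 3. With transcript length offsets the values were 0.053 and 0.13, so the sign turned. These values rest on 40.8 to 127 estimated reads a library. Of the 31-base words in Klrc2 transcripts, 16.8% also occur in Klrc1 transcripts, whose reads outnumber them, so how reads were split between the copies is uncertain. Between 51.2% and 100% of the Klrc2 reads of a library were given to 2 of its 6 transcripts, a long coding one and a retained intron. The reads on the other 4 numbered 0 to 39.3 a library. Klrc3, whose coding sequence is 95.9% identical to that of Klrc2, had reads in 3 of the 8 libraries and at most 0.553 CPM. With the reads of Klrc1, Klrc2 and Klrc3 summed, the log2 fold change in NFAT5 against eGFP control was -0.62 ± 0.22 (edgeR adjusted p = 0.653).

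Klrk1 (ENSMUSG00000030149, chr6:129610323-129623864, minus strand), the gene of NKG2D, lay at 276, 207 and 186 CPM in NFAT5 1, 5 and 8, at 418, 258 and 156 CPM in CA-RIT NFAT1 2, 4 and 9, and at 312 and 301 CPM in eGFP control 3 and 6. The NFAT5 libraries lay below both controls, whereas CA-RIT NFAT1 gave both the highest and the lowest of the 8 values. Means were 223 ± 46.8 CPM in NFAT5, 278 ± 132 CPM in CA-RIT NFAT1 and 306 ± 8.23 CPM in eGFP control. The log2 fold change was -0.57 ± 0.36 in NFAT5 against eGFP control (edgeR adjusted p = 0.669) and -0.28 ± 0.36 in CA-RIT NFAT1 against eGFP control (edgeR adjusted p = 0.820). Without eGFP control 3 the values were -0.46 and -0.17.

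The mouse Klrk1 gene makes a long and a short NKG2D from alternative start exons, and the short form, in mouse, has been described to use the adaptor DAP12 (Tyrobp) besides DAP10. The annotated transcripts separate these forms by their outermost exon. The long form begins at chr6:129622537-129622772 and has 232 codons without the stop. The short form begins 1038 bases further out, at chr6:129623811-129623841, and has 219. The 13 codons between the capital start codons of the printed sequence are the difference. A long-tailed variant of the short form shares the outer exon, has 18 more coding bases and ends in an exon of 2581 bases, against 490 in the long form and 444 in the short form. Of the reads on these 3 transcripts, the long form took 44.5%, 51.7% and 54.5% in NFAT5 1, 5 and 8, 42.9%, 52.2% and 52.7% in CA-RIT NFAT1 2, 4 and 9, and 54.4% and 49.9% in eGFP control 3 and 6. The widest 95% Wilson interval, that of NFAT5 5, ran from 50.1% to 53.3%, and like all intervals and floors here it covers counting error only. In TPM, which allows for the unequal lengths, the long form made up 53.5%, 61.4% and 62.5% of the 3 transcripts in NFAT5 1, 5 and 8, 51.2%, 58.1% and 63.8% in CA-RIT NFAT1 2, 4 and 9, and 56.7% and 60.3% in eGFP control 3 and 6. It was thus the larger share per length in each of the 8 libraries, and the 3 groups overlapped on both scales. By reads, the long-tailed variant took 17.0% in eGFP control 3 and 24.6% to 34.1% in the other 7. Because reads in the long last exon can only come from that variant, its share also depends on how evenly a library covers the 3′ end, and coverage along transcripts was not analysed here.

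**Figure D2:**
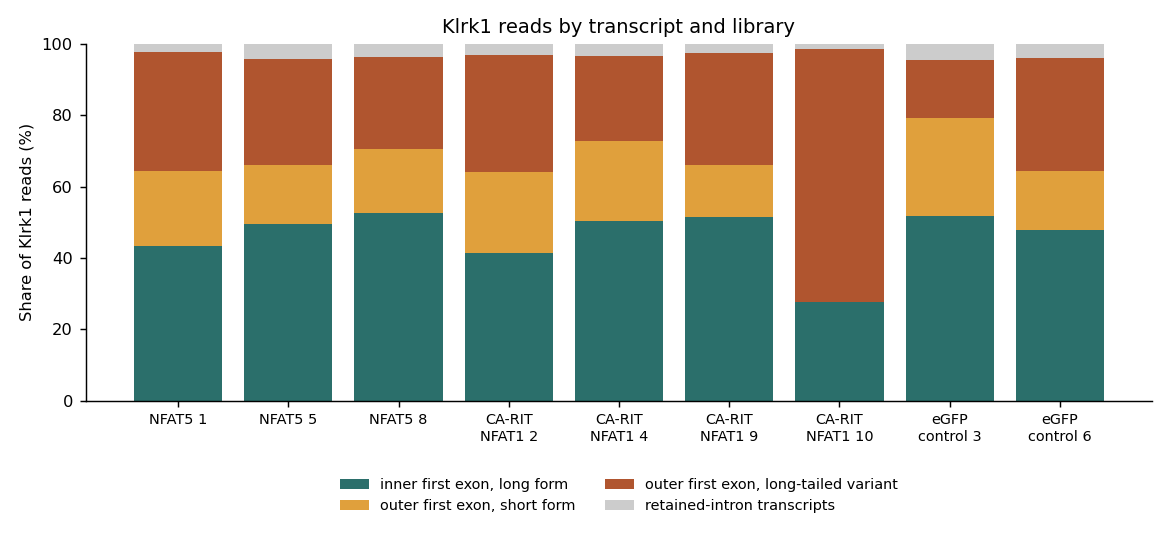
Share of Klrk1 reads on each transcript (y axis, percent) in 9 libraries, grouped by vector. Of all Klrk1 reads, retained-intron transcripts included, the long form holds 41.5% (CA-RIT NFAT1 2) to 52.6% (NFAT5 8) in 8 libraries. CA-RIT NFAT1 10, with 477 Klrk1 reads and practically no Cd8a, has most of its reads on the long-tailed variant. In TPM, which is not drawn, the long form makes up 52.8% of its coding transcripts.

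Hcst, the DAP10 adaptor gene, was the most abundant of the 17 listed adaptor and signalling genes, at 409 TPM on average, and exceeded Klrk1 in each of the 8 libraries by 1.69 to 3.18 times. Tyrobp, the DAP12 gene that activating CD94 pairs use, averaged 25.6 TPM, and Hcst exceeded it 10.5 to 34.5 times. DAP10 recruits Grb2, whose gene averaged 162 TPM. Of the kinases that DAP12 can engage, Zap70 averaged 133 TPM and Syk 0.394 TPM. Ptpn6, the SHP-1 phosphatase that binds ITIMs, averaged 127 TPM. Its CPM were 219, 284 and 257 in CA-RIT NFAT1 2, 4 and 9, above the 144, 174 and 137 of NFAT5 1, 5 and 8, with a log2 fold change of 0.73 ± 0.20 (edgeR adjusted p = 1). Over the 17 genes 0 passed the adjusted test in any comparison, and the median log2 fold changes were 0.00 in NFAT5 against eGFP control, -0.03 in CA-RIT NFAT1 against eGFP control and -0.04 in CA-RIT NFAT1 against NFAT5, and without eGFP control 3 the first 2 were 0.03 and 0.18.

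Klrg1 (ENSMUSG00000030114, chr6:122270596-122282882, minus strand) followed another pattern. It lay at 165, 346 and 311 CPM in NFAT5 1, 5 and 8, at 143, 219 and 87.0 CPM in CA-RIT NFAT1 2, 4 and 9, and at 306 and 199 CPM in eGFP control 3 and 6. The NFAT5 libraries bracketed the controls, and CA-RIT NFAT1 held the lowest values, although CA-RIT NFAT1 4 lay above NFAT5 1 and eGFP control 6. Means were 274 ± 95.9 CPM in NFAT5, 150 ± 66.3 CPM in CA-RIT NFAT1 and 252 ± 75.7 CPM in eGFP control. The log2 fold change was 0.01 ± 0.46 in NFAT5 against eGFP control (edgeR adjusted p = 1) and -0.89 ± 0.46 in CA-RIT NFAT1 against eGFP control (edgeR adjusted p = 0.679). Against NFAT5, the value in CA-RIT NFAT1 was -0.89 ± 0.42 (edgeR adjusted p = 1), the smallest p of the 7 members in that comparison. Without eGFP control 3 the values against the eGFP control were 0.45 and -0.44. Klrk1 and Klrd1 were highest within CA-RIT NFAT1 in library 2 and Klrg1 in library 4, and in TPM the ratio of Klrg1 to Klrk1 spanned 0.312 to 1.52 over the 8 libraries.

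Klre1 (ENSMUSG00000050241, chr6:129577905-129585827, plus strand) was low but detected in each of the 8 libraries, with 82 to 513 reads. It lay at 17.4, 9.75 and 8.35 CPM in NFAT5 1, 5 and 8, at 17.3, 4.80 and 2.91 CPM in CA-RIT NFAT1 2, 4 and 9, and at 4.96 and 10.7 CPM in eGFP control 3 and 6. The groups overlapped, and the spread within CA-RIT NFAT1 was nearly as wide as over all 8 libraries, which spanned 5.98-fold from lowest to highest. The log2 fold change was 0.50 ± 0.80 in NFAT5 against eGFP control (edgeR adjusted p = 0.852) and -0.03 ± 0.79 in CA-RIT NFAT1 against eGFP control (edgeR adjusted p = 0.993). Without eGFP control 3 these were 0.11 and -0.43. Its known partners were scarcer still: Klri1 had 0 reads in the 8 libraries, and Klri2 had reads in 7 of them, at a mean of 0.312 TPM. Counts of 0 allow levels up to 3 counts, or 0.0821 to 0.160 CPM in these libraries.

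Klrb1c (ENSMUSG00000030325, chr6:128778485-128789215, minus strand), the NK1.1 gene, was listed at 0 in 5 of the 8 libraries. It had 4 reads in NFAT5 5 (0.213 CPM), 84 in CA-RIT NFAT1 4 (2.90 CPM) and 15 in eGFP control 6 (0.607 CPM). Each group held 1 library with reads, so a fitted fold change depends on the prior count, is no bound, and none is read here. Klrb1c overlaps the annotated gene Gm44511, and no strand setting of the counting is given in the sources used here.

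Taking the members side by side, 4 of 7 (Klrc1, Klrc2, Klrd1 and Klrk1) had every NFAT5 library below both eGFP control libraries, in CPM, a pattern that 8.15% of the 14473 tested genes also showed. In TPM, Klrc1 and Klrd1 kept this separation. Klrk1 did not, since NFAT5 1 lay above the 193 TPM of eGFP control 3, and neither did Klrc2. In CA-RIT NFAT1 against eGFP control, 0 of 7 separated in this way, against 6.67% of all tested genes lower and 14.2% higher. In CA-RIT NFAT1 against NFAT5, 0 of 7 separated, against 2.78% lower and 4.06% higher. The number of members at an unadjusted edgeR p under 0.05 was 1 (Klrc1), 0 and 0 in these comparisons, where 7.26%, 6.44% and 1.13% of tested genes had such a p (4.01%, 3.16% and 0.339% with a lower level). The members' median log2 fold change was -0.57 in NFAT5 against eGFP control, -0.40 in CA-RIT NFAT1 against eGFP control and 0.11 in CA-RIT NFAT1 against NFAT5, beside 0.08, 0.10 and 0.00 over all tested genes. Without Klrb1c, an alternative chosen after seeing the data, the median of the other 6 was -0.54, -0.41 and 0.05. The median of the 7 was -0.46 and -0.32 in the comparisons with the eGFP control without eGFP control 3. The comparisons with the eGFP control share their control libraries and are not independent. In CA-RIT NFAT1 against NFAT5 the log2 fold changes of Klrc1, Klrc2, Klrd1, Klrk1 and Klre1 were 0.20 ± 0.20, 0.11 ± 0.61, -0.01 ± 0.50, 0.29 ± 0.33 and -0.54 ± 0.71, each with an edgeR adjusted p of 1.

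**Figure D3:**
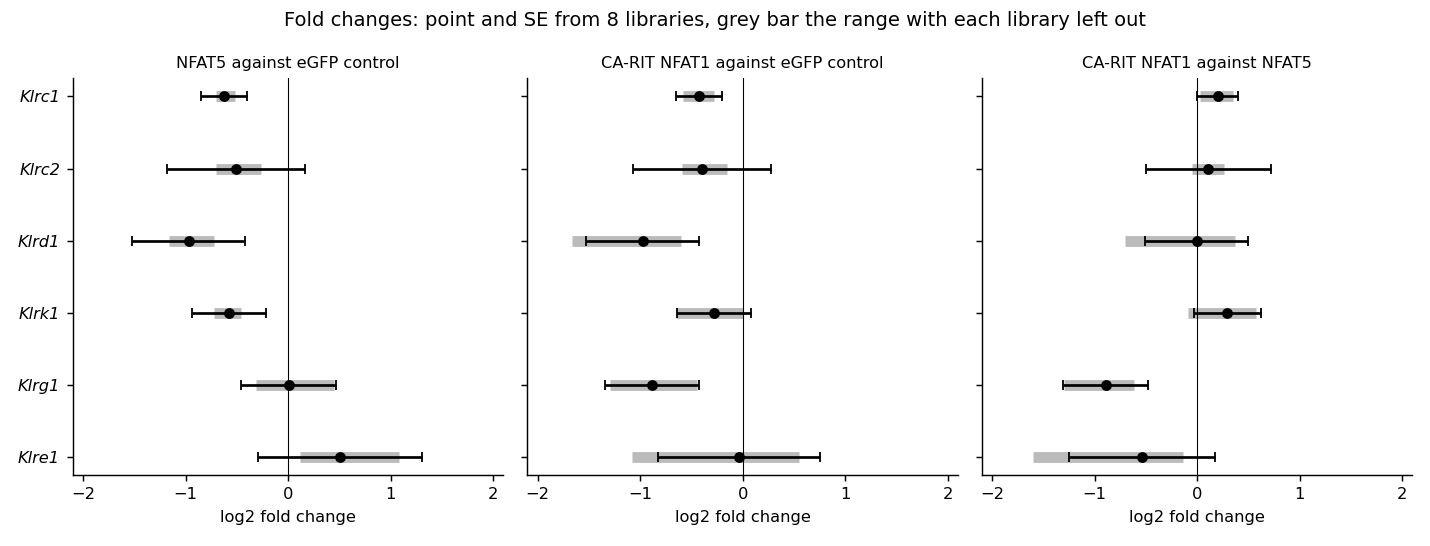
Log2 fold changes (x axis) of 6 receptor genes in the 3 comparisons, with points and bars for the edgeR estimate and its SE over 8 libraries and grey bars for the range when each library is left out. Klrc1, Klrc2, Klrd1 and Klrk1 lie left of 0 in NFAT5 against eGFP control throughout the grey range, at most -0.27 for Klrc2, whose sign turned with length offsets, while Klrg1 lies at 0.01. Klrb1c is not drawn.

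Transcripts that mark the sorted cells themselves were also measured, and 0 of 13 T cell markers were called in any comparison. The 13 markers, among them Cd8a and the CD3 and receptor chains, summed to 27886 to 29422 CPM in NFAT5, 29487 to 35117 CPM in CA-RIT NFAT1 and 34571 to 43244 CPM in eGFP control. Their median log2 fold change was -0.48 in NFAT5 against eGFP control, with 2 of 13 above 0 (Thy1 at 0.28 and Cd5 at 0.19), and -0.42 in CA-RIT NFAT1 against eGFP control, with 3 of 13 above 0. These medians were -0.21 and -0.11 without eGFP control 3. In TPM relative to Cd8a, Klrc1 stood at 0.980, 0.792 and 0.801 in NFAT5 1, 5 and 8, at 1.505, 1.04 and 0.726 in CA-RIT NFAT1 2, 4 and 9, and at 0.831 and 1.22 in eGFP control 3 and 6. On that ratio NFAT5 1 lay between the control libraries, so the groups overlapped. In sorted bulk cells, fewer cells of a type and less RNA per cell cannot be told apart, and the part of the T cell transcripts in the receptor values was not tested.

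The cells were sorted as CD8 T cells, and the defining genes of the host's NK cells, which also express these receptors, were measured beside them. The 13 NK markers summed to 56.6 to 84.1 CPM in NFAT5, 51.7 to 81.6 CPM in CA-RIT NFAT1 and 187 and 38.2 CPM in eGFP control 3 and 6. This sum includes Tyrobp and Fcer1g, which myeloid cells express too. Ncr1, which encodes the NK receptor NKp46, had 0 reads in 5 of the 8 libraries and at most 3.87 CPM, in CA-RIT NFAT1 9. Klra4 and Klra8, of the Ly49 family of NK receptors, had reads in 2 of the 8 libraries each, and Klra7 and Klra9 in 4 each. Other markers in the sum were not as scarce. Gzmm, at 5.92 to 32.1 CPM, and Fcgr3, at 2.50 to 42.4 CPM, had reads in each of the 8 libraries, and Klri2 had reads in 7. Summed markers of other cells overlapped between NFAT5 and eGFP control, with macrophage genes at 102 to 245 CPM in NFAT5, 193 to 464 CPM in CA-RIT NFAT1 and 225 to 229 CPM in eGFP control. Mast cell and P511 genes summed to 152 to 265 CPM in NFAT5, 82.0 to 221 CPM in CA-RIT NFAT1 and 263 and 58.3 CPM in eGFP control 3 and 6. Each library of both vector groups thus lay above eGFP control 6 in this sum. Dendritic cell genes summed to 207 to 296 CPM in NFAT5, 177 to 311 CPM in CA-RIT NFAT1 and 1055 and 237 CPM in eGFP control 3 and 6. Most of the sum in eGFP control 3 came from H2-Ab1 and Cd74, which other cells can express too. Their highest values among the 8 libraries were 454 and 565 CPM. Zbtb46, Clec9a and Cd209a had 0 reads in eGFP control 3. The 6 dendritic cell genes that were tested had median log2 fold changes of -2.18 in NFAT5 against eGFP control and -1.86 in CA-RIT NFAT1 against eGFP control. Of these 6, 0 were called, and 4 and 3 had an unadjusted edgeR p under 0.05. Zbtb46 was in both counts but in the other direction, at 6.87 and 9.38. It had 0 reads in eGFP control 3 and 6, so its fitted values depend on the prior count. With eGFP control 6 as the lone control, the medians of the 6 genes were -0.23 and 0.26. In the same comparisons the 9 tested genes of the NK list had medians of 1.32 and -0.24 over the 8 libraries, and 2.54 and 2.93 with that lone control. Of these 9, Ncr1, Klra9 and Itga2 had 0 reads in eGFP control 3 and 6, and Sh2d1b1 had 0 in eGFP control 6. The fitted values of such genes depend on the prior count, so these medians are not read as a rise of NK genes. The macrophage list moved from -0.72 and 0.18 to 2.42 and 3.08, and the mast cell and P511 list from 0.15 and -0.25 to 1.39 and 1.34. Of the 15 macrophage genes, 7 had 0 reads in eGFP control 6. The part of these other cells, and of NK cells, in the receptor values was not tested.

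Except for Klrg1, which lies 7.30 Mb away on chromosome 6, the members belong to the NK gene complex, a cluster of lectin receptor genes. Between Klrb1a and Klra1 the annotation places 42 protein-coding genes, of which 12 reached a mean of 1 TPM over the 8 libraries and 30 did not. The 3 highest were Klrc1, Klrk1 and Cd69, an early activation receptor at 175 TPM, followed by Klrd1. Klrd1 and Klrk1 are neighbours on opposite strands, 11.5 kb apart, and Klre1 to Klrc1 spans 101 kb. Within this span Klre1, Klrc3 and Klrc2 stayed far below Klrd1, Klrk1 and Klrc1, so neighbouring members differed widely in level. Of the 28 other lectin receptors on the list 27 were in the files and 11 passed the low-count filter, and 0 were called by edgeR. After Cd69 their highest were Clec2i at 6.22 TPM, Clec2d at 3.90 TPM and Klrb1f at 2.63 TPM.

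**Figure D4:**
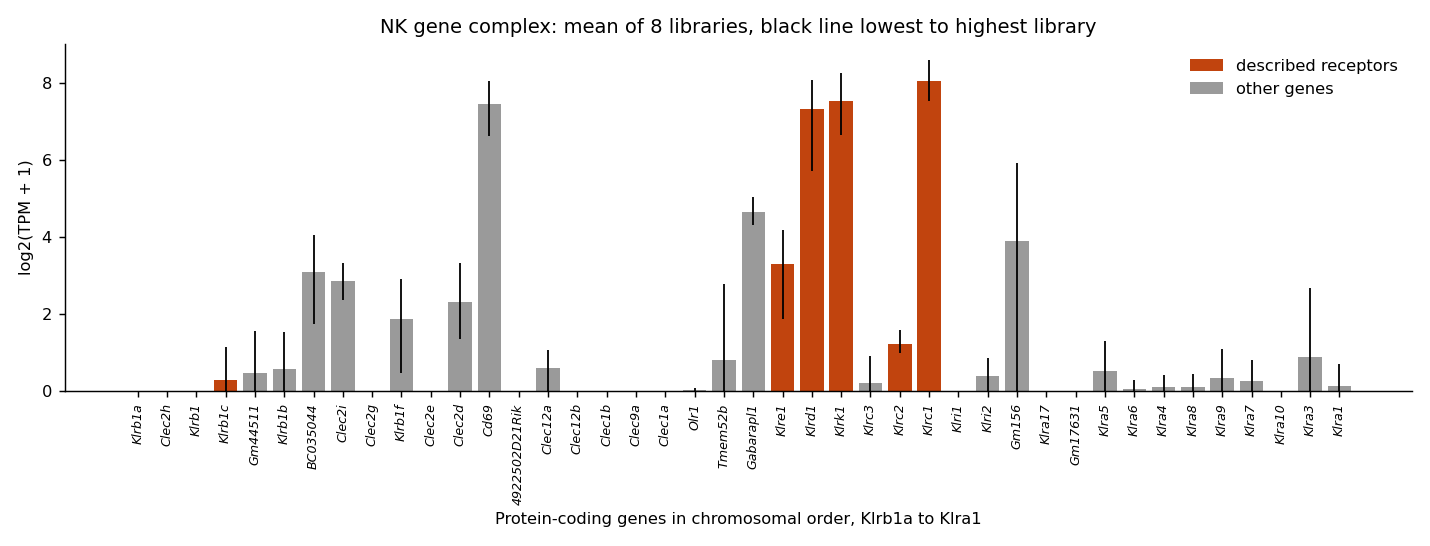
Mean level of the 42 protein-coding genes of the NK gene complex in chromosomal order (log2(TPM + 1), bars), with the lowest and highest of 8 libraries as black lines and the described receptors in red. Klrd1, Klrk1 and Klrc1 exceed their neighbour Klre1, at 8.83 TPM, and Cd69 and Gabarapl1 are high genes that are not among the 7 receptors.

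Ligand genes were measured only in the sorted cells, not in the tumour. H2-T23, the Qa-1 ligand of the CD94 receptors, averaged 398 TPM, more than Klrc1. It lay at 598, 464 and 435 CPM in NFAT5 1, 5 and 8, at 684, 487 and 427 CPM in CA-RIT NFAT1 2, 4 and 9, and at 890 and 673 CPM in eGFP control 3 and 6. The NFAT5 libraries lay below both controls, and the log2 fold change was -0.77 ± 0.26 in NFAT5 against eGFP control (edgeR adjusted p = 0.654) and -0.69 ± 0.26 in CA-RIT NFAT1 against eGFP control (edgeR adjusted p = 0.679). The values were -0.46 and -0.39 without eGFP control 3. Of the NKG2D ligands, Ulbp1, which encodes MULT1, averaged 7.76 TPM, while Raet1d, H60b and H60c averaged 0.108, 0.0528 and 0.00599 TPM and Raet1e had 0 reads in the 8 libraries. The cadherins bound by KLRG1 were at or near 0, with reads on Cdh1 and on Cdh2 in 1 library each and on Cdh4 in none of the 8. Of 19 listed ligand genes 16 were in the files and 7 passed the filter, and 0 of 7 were called. The 7 had median log2 fold changes of -0.53 in NFAT5 against eGFP control, -0.41 in CA-RIT NFAT1 against eGFP control and -0.00 in CA-RIT NFAT1 against NFAT5, and without eGFP control 3 the first 2 were -0.30 and -0.18. Against the eGFP control, 2 and 1 of the 7 lay above 0. Ulbp1 was among them in both, at 1.67 ± 0.69 (edgeR adjusted p = 0.654) and 1.13 ± 0.67 (edgeR adjusted p = 0.679). Its CPM were 2.05 and 11.3 in eGFP control 3 and 6, and 19.5, 22.1 and 24.6 in NFAT5 1, 5 and 8.

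Factors known to control these receptors were measured too, and 0 of 20 were called. Among 20 listed transcription factors and cytokine receptors, the highest were Il2rg at 630 TPM, Id2 at 524 TPM, Il2rb at 506 TPM, Bhlhe40 at 372 TPM, Ets1 at 124 TPM and Tbx21, the T-bet gene, at 111 TPM. The smallest p among these 6 was that of Id2, an inhibitor of E proteins, whose log2 fold change was -0.91 ± 0.27 in NFAT5 against eGFP control (edgeR adjusted p = 0.654) and -1.04 ± 0.27 in CA-RIT NFAT1 against eGFP control (edgeR adjusted p = 0.679). Tbx21 was at -0.38 ± 0.30 and -0.10 ± 0.31 in these comparisons. With eGFP control 3 left out, Id2 was at -0.49 and -0.61 and Tbx21 at -0.82 and -0.55 (edgeR adjusted p = 1 each). The 20 genes had a median of -0.05 in NFAT5 against eGFP control, 0.04 in CA-RIT NFAT1 against eGFP control and 0.10 in CA-RIT NFAT1 against NFAT5, and without eGFP control 3 the first 2 were -0.28 and -0.19. The 15 tested receptors of the NK type outside the lectin family, such as Slamf7 and Tigit, had medians of -0.68, -0.14 and 0.48 in the same order, and 0 were called. Slamf7 stood at -0.73 ± 0.24 and Tigit at -0.71 ± 0.34 in NFAT5 against eGFP control (edgeR adjusted p = 0.654 each). Ly6c2 and Slamf6, the highest of the list at 1233 and 143 TPM, did not share this direction. They stood at 0.28 ± 0.49 and 0.04 ± 0.26 in that comparison, where 4 of the 15 lay above 0. The list's medians against the eGFP control without eGFP control 3 were -0.17 and 0.11, with Slamf7 at -0.77 and Tigit at -0.36 in NFAT5.

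Across the 8 libraries the high members of the NK gene complex varied alike. On log2(CPM + 1), Pearson's r was 0.92 between Klrc1 and Klrk1, 0.90 between Klrd1 and Klrk1 and 0.88 between Klrc1 and Klrd1. Klrg1 stood apart, with r of 0.08 to Klrc1, 0.06 to Klrk1 and 0.32 to Klrd1. Among the 9298 genes that averaged 5 CPM or more, those most like Klrc1 were F2rl2, H2-Q4 and Gm8909 (r = 0.98, 0.98 and 0.97), and those most like Klrk1 were Khnyn, Hbp1 and Gm8909 (0.97, 0.95 and 0.95). For Klrd1 they were Tmem63a, Uckl1 and Gsn (0.97, 0.97 and 0.96). Klrg1 was most like Gzma, the granzyme A gene of cytotoxic granules, with r of 0.94, followed by Nfyb and Ubxn11 (0.93 and 0.92). For Klre1 they were Gpr183, Rxrb and Hspa4l (0.97, 0.97 and 0.95), for Klrc2 Cd200r1, AU020206 and Cd244a (0.98, 0.97 and 0.96), and for Klrb1c, which is at 0 in 5 libraries, Egln1, Magt1 and Gm43305 (0.90, 0.89 and 0.88). These are descriptions over 8 libraries that share vector groups and depth.

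Since both tested factors bind DNA through a Rel-type domain, the promoters were read for their core letters. RefSeq promoter windows (GRCm38.p6, 250 bases before to 50 after the start of the gene) were matched for 5 of the 7 members, not for Klrd1 and Klrg1. The windows of Klrc1 (chr6:129678924-129679223) and Klrc2 (chr6:129660547-129660846) are shown, 5′ to 3′ on the minus strand, because these near-copies differ 131 to 312 times in TPM. Capitals mark GGAAA on either strand, the core bound by NFAT proteins.
Klrc1 promoter: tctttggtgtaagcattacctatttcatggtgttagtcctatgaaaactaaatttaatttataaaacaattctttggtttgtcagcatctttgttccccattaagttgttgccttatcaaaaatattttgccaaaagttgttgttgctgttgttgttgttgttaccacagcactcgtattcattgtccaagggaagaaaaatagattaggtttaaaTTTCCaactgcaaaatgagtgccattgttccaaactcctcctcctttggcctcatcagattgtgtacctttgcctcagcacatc
Klrc2 promoter: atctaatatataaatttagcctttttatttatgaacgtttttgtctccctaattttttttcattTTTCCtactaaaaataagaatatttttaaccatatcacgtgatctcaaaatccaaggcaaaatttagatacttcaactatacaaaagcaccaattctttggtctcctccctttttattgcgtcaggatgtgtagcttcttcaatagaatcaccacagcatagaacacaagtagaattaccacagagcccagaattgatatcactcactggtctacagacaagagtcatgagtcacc
Klrc1 and this Klrc2 window held 1 GGAAA each, on the opposite strand in both, and another Klrc2 window held 2. The match of Klrc1 was also a TGGAAA, the core of NFAT5 sites, which contains GGAAA. Klrk1 had 0 matches to either in its window (chr6:129623815-129624114), Klre1 had 1 GGAAA and Klrb1c had 2. That Klrk1 window lies at the outer first exon, where the short form begins, and the start of the long form was not read. Such matches are common, since 61.3% of 32851 promoter windows of this length held GGAAA and 21.4% held TGGAAA on either strand. The T-box letters TCACAC occurred in 14.5% of windows and, among the members, in Klre1 with 1 match. A match describes letters in this window and does not show binding.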

How the data were processed

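RNA of sorted CD8 T cells was sequenced in 10 libraries of 3 vector groups. Salmon 0.14.1 and the mouse builds mm10 and GRCm38.p6 are named in the submitters' processing notes. The deposited estimated counts are Salmon's reads per transcript, per the file headers. The deposited TPM, scaled by the authors' run of Salmon for length and depth, were summed per gene for comparisons between genes. The effective lengths in the deposited tables, a quantity other than expression, served the transcript length offset alone. Of 140919 transcripts 139966 matched GENCODE M21, 99.9% of them with the same length, and 953 were left out (at most 0.292% of a library's reads). Estimated counts were summed over transcripts into 54337 genes and rounded for tests. CPM use the reads on matched genes, with no TMM factor.

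Tests were edgeR 4.0.16 quasi-likelihood fits in R 4.3.3 on 8 libraries (eGFP control 7 and CA-RIT NFAT1 10 left out), with TMM, the default low-count filter, 1 dispersion trend over 3 groups and Benjamini-Hochberg adjustment at 0.05. All 7 receptors passed the filter. The biological coefficient of variation was 0.725. The edgeR standard errors were derived from each fold change and the F statistic of its quasi-likelihood test. DESeq2 1.42.0 and limma 3.58.1 voom with quality weights were alternatives, as were RLE scaling, no filter, a stricter filter (10 reads in 3 libraries and a mean of 5 CPM), the compared groups alone, transcript length offsets, all 10 libraries, summed Klrc reads and each library left out. The test was tried on simulated data. At most 6 genes of a list were to be named, by mean TPM, besides Tyrobp, Syk, the ligands and the markers, which were named for their roles. The members, lists and left-out libraries were chosen with earlier results of these data known.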

Additional observations from a re-analysis of the deposited data

Results flagged for a closer look

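Klrb1c, the NK1.1 gene, had reads in 1 of the 4 CA-RIT NFAT1 libraries, 84 reads or 2.90 CPM in CA-RIT NFAT1 4 and 0 in CA-RIT NFAT1 2, 9 and 10. The gap from that library to the nearest other was the whole range of the group, a ratio of 1, above the 95% critical value of Dixon's test for 4 samples. With the other 3 at 0, any number of reads gives this ratio, and 1 of the 3 is CA-RIT NFAT1 10, the library left out of the group values. Chance alone marks about 1 in 20 groups of normally distributed values in this way, and 7 genes were looked at. For a gene at 0 in most libraries, such as Klrb1c, that rate does not apply. Ncr1, another NK gene, had 0 reads in CA-RIT NFAT1 4, and the part of NK cells in the Klrb1c reads was not tested.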

How the results depend on the processing

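No receptor passed the adjusted test in any of the fits run, so the processing changed directions but no call. Of 325 receptor values recomputed under an alternative, 300 kept their sign and 25 turned it, 14 of them when a library was left out. Genes called by DESeq2 numbered 104 in NFAT5 against eGFP control, 60 in CA-RIT NFAT1 against eGFP control and 1 in CA-RIT NFAT1 against NFAT5, against 0 by edgeR. Leaving out each library gave 0 to 3294 calls, 0 to 3410 calls and 0 calls in these comparisons, the highest without eGFP control 6. In NFAT5 against eGFP control, Klrc2 was 0.053 with transcript length offsets, Klrg1 was -0.0079 by DESeq2, -0.0080 with RLE scaling and -0.0068 with the stricter filter, and Klrb1c was 0.15 by voom, all as log2 fold changes. With each library left out, Klrg1 ran from -0.32 to 0.45 and Klrb1c from -6.09 to 3.97. The fitted values of Klrb1c depend on the prior count and are no bound. In CA-RIT NFAT1 against eGFP control, length offsets gave 0.13 for Klrc2 and 0.10 for Klre1, and left-out libraries gave -0.65 to 0.00067 for Klrk1 and -1.08 to 0.55 for Klre1. In CA-RIT NFAT1 against NFAT5, all 10 libraries gave -0.22 for Klrc1, -0.31 for Klrc2 and -0.10 for Klrk1, and length offsets gave 0.023 for Klrd1. There, left-out libraries gave -0.055 to 0.26 for Klrc2, -0.70 to 0.37 for Klrd1 and -0.090 to 0.57 for Klrk1. The cause was not tested. Depth limits Klrc2 and Klrb1c, which rest on at most 127 and 84 reads a library, while Klrc1, Klrd1, Klrk1 and Klrg1 had at least 981 reads in each of the 8 libraries. No paired analysis was run. The replicate numbers in the labels only repeat the library numbers, so they do not tell whether libraries were paired. Among the 8 libraries, NFAT5 8 and CA-RIT NFAT1 9 had the lowest CPM of Klrc1, Klrc2, Klrd1 and Klrk1. For Klrd1 these were 52.3 and 34.8 CPM. This did not hold for Klrg1 or Klre1. The control library nearest to them in number was left out of the main test. Whether the levels follow the library order was not tested.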

Other observations

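CA-RIT NFAT1 10, the library with 1 Cd8a read, had 477 reads on Klrk1 (14.7 CPM) and 0 reads on the other 6 receptors. Of its reads on the coding Klrk1 transcripts 72.0% fell on the long-tailed variant (95% Wilson interval from 67.9%) and 0 on the short form with the short last exon. In TPM that variant made up 47.2% and the long form 52.8%. Its Hcst level was 18.4 CPM and its Tyrobp level 124 CPM, while across the 8 libraries used for the tests Tyrobp peaked at 30.5 CPM, in eGFP control 3. The 13 NK markers of CA-RIT NFAT1 10 summed to 1128 CPM. Fcer1g gave 701 CPM of this sum, Fcgr3 303 CPM and Tyrobp 124 CPM, and the other 10 markers, Ncr1 among them, had 0 reads. Macrophage genes summed to 4643 CPM in this library and mast cell and P511 genes to 5146 CPM. The part of each cell type was not tested. eGFP control 7, with 51112 reads, had 1 read on Klrc1 and 0 on the other 6 receptors.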
